A study of Mus musculus with 11 samples.

Results

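The enzymes that write, maintain and remove DNA methylation were followed in LSKs (Lin-Sca1+Kit+ bone marrow cells, the fraction that holds hematopoietic stem cells and multipotent progenitors) of mice with different p53 genotypes. A list of 10 genes was taken by symbol from the RNA-seq count table: Dnmt1, Dnmt3a, Dnmt3b, Uhrf1, Tet1, Tet2, Tet3, Idh1, Idh2, and Tdg. Of these, 9 had a row among the 12647 genes of the table, and all 9 passed the filter on low counts that left 12625 genes for testing. Tdg, the glycosylase that excises oxidized methylcytosine, had 0 rows by symbol, NCBI gene number or synonym and is not analysed here.

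DNA methylation is set on the cytosine of CpG dinucleotides by DNMT3A and DNMT3B and is copied to the new strand after replication by DNMT1, which UHRF1 brings to hemimethylated DNA. The TET enzymes oxidize methylcytosine in a reaction that needs iron and 2-oxoglutarate, a metabolite made by IDH1 in the cytosol and by IDH2 in mitochondria. Mutations of DNMT3A, TET2, IDH1 and IDH2 are frequent in myeloid leukemia, and those of DNMT3A and TET2 are also found in clonal hematopoiesis. Mutant IDH1 and IDH2 make 2-hydroxyglutarate, which inhibits TET enzymes.

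The 9 libraries fall into 3 genotypes with 3 libraries each, p53+/+, p53R248W/+, and p53-/-. The study's methods describe the mice of all 3 genotypes as young and free of tumors. They give the C57BL/6 background for the p53+/+ and p53R248W/+ mice and name none for the p53-/- mice. According to the study's methods, the p53+/+ mice are HUPKI mice, in which the p53 gene is a humanized knock-in under the endogenous mouse promoter, and the R248W allele, which is mutated in the DNA-binding domain, was made in that humanized gene. The p53R248W/+ mice carry 1 such mutant allele in every tissue, and the origin of the p53-/- allele is not given in the sources used here. The labels do not say whether the libraries of a genotype came from separate mice, so the p-values measure the spread between these samples, and in bulk RNA fewer cells of a type and less RNA per cell cannot be told apart.

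Between 18021375 and 29750702 reads were counted on genes per library, the largest number in p53R248W/+ replicate 1. This library stood apart. On a measure of long against short genes (the median log2 deviation of genes of at least 8000 bases minus that of genes of at most 2000 bases) it lay at -0.68, against -0.43 to 0.56 in the other libraries. LSK markers were present in every library, with Kit at 427 to 861 CPM (read counts scaled to the TMM-normalized library size) and Cd34 at 1372 to 1821 CPM. Cdkn1a, which encodes the p53 target p21, read 43.6 to 67.0 CPM in p53+/+, 35.7 to 52.1 CPM in p53R248W/+, and 8.27 to 17.8 CPM in p53-/- libraries, and it fell in p53-/- against p53+/+ (edgeR adjusted p = 0.00914). Y-linked genes summed to at most 0.216 CPM in 6 libraries, among them all p53-/- libraries, and to 69.8 to 184 CPM in p53+/+ replicate 2 and p53R248W/+ replicates 2 and 3. Of these 3 libraries, p53+/+ replicate 2 and p53R248W/+ replicate 2 also held Xist, at 65 and 149 CPM, and the labels give neither the sex of the mice nor pooling.

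To see how much of each transcript these cells hold, levels were divided by gene length. In p53+/+ LSKs, Idh2 stood highest at 378 ± 52.1 CPM per kb (SD, n = 3), above 98.4% of the 12625 genes tested. Uhrf1 followed at 91.4 ± 17.3, Dnmt1 at 65.2 ± 15.5, Dnmt3b at 33.1 ± 4.88, Idh1 at 31.0 ± 0.955, and Dnmt3a at 12.6 ± 1.22 CPM per kb. The 3 TET genes closed the order, with Tet3 at 3.66 ± 0.299, Tet1 at 3.00 ± 0.607, and Tet2 at 2.29 ± 0.434 CPM per kb, the last above 21.4% of the genes tested. The libraries of neighbours overlapped for Uhrf1 and Dnmt1, for Dnmt3b and Idh1, for Tet3 and Tet1, and for Tet1 and Tet2, while the other neighbours in this order did not overlap. In p53-/- LSKs, Idh1 followed Uhrf1 at 34.6 ± 4.13 CPM per kb beside Dnmt1 at 34.5 ± 4.91, and the TET genes kept their order.

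**Figure D1:**
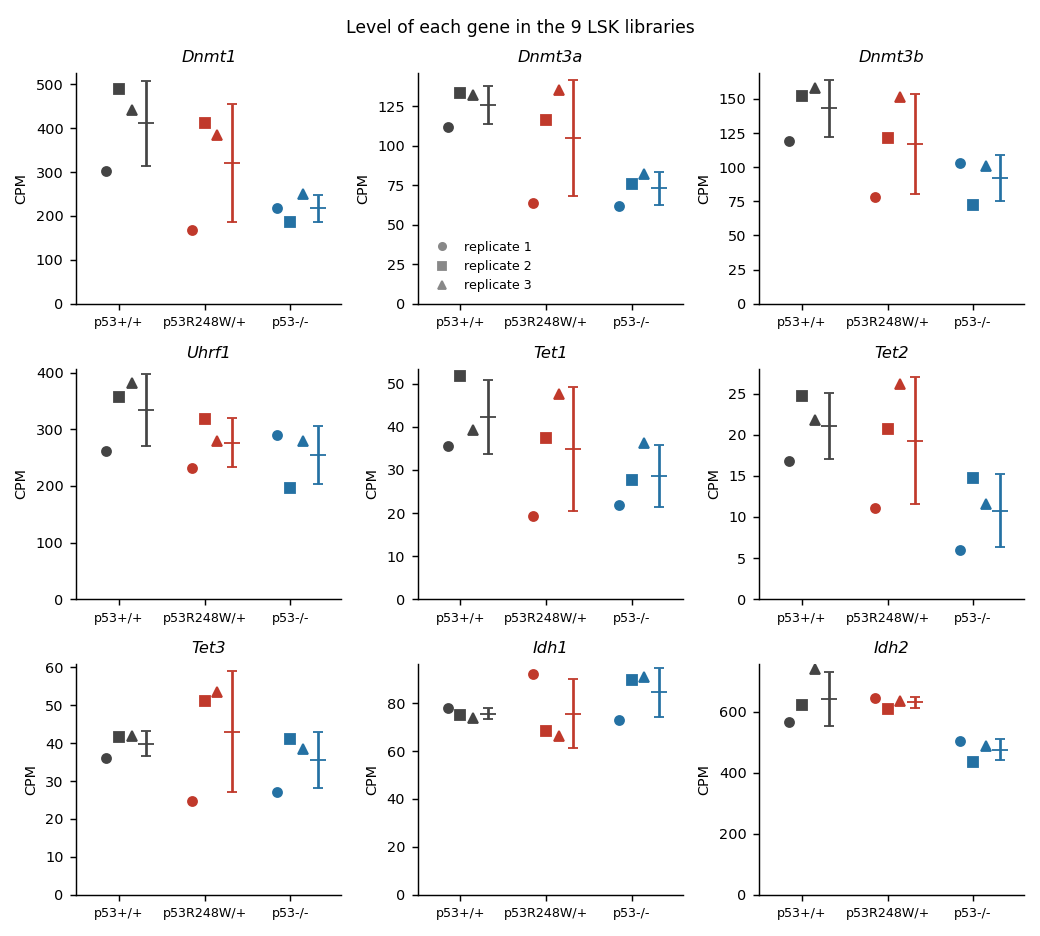
CPM (TMM-normalized, linear axis from 0) of 9 DNA methylation genes in LSK libraries of 3 genotypes, with a symbol for each replicate and, beside them, the mean with its SD (n = 3). The p53-/- points lie below every p53+/+ point for Dnmt1, Dnmt3a, Dnmt3b, Tet2, and Idh2, and p53R248W/+ replicate 1 is the lowest of its genotype for 7 of the 9 genes. Likewise, p53+/+ replicate 1 is the lowest of its genotype for every gene but Idh1.

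None of the 9 genes passed the threshold between any pair of genotypes in the edgeR fit to all 9 libraries. In p53-/- against p53+/+ LSKs, which asks what loss of p53 changes, 8 of the 9 genes had lower estimates, led by Tet2, Dnmt1, Dnmt3a, and Dnmt3b. Dnmt1, Dnmt3a, Dnmt3b, Tet2, and Idh2 were lower in every p53-/- library than in any p53+/+ library. In p53R248W/+ LSKs, Dnmt1, Dnmt3a, Dnmt3b, Tet1, Tet2, and Tet3 were lowest in replicate 1, and all 9 genes overlapped with p53+/+ LSKs. The same DNMT and TET genes were also lowest in replicate 1 among the p53+/+ libraries.

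In p53-/- against p53+/+, edgeR called 0 of 9 genes at an adjusted p below 0.05, where it called 3.5% of all genes tested. At an unadjusted p below 0.05 it found 5 of 9, all lower (23.4% of all genes, in either direction). The same 5 did not overlap between genotypes, against 31.4% of all genes in either direction and 16% in the lower direction. DESeq2 called 2, Dnmt1 and Dnmt3a (adjusted p = 0.0267 and 0.0278), where it called 1552 of 12600 genes, and limma-voom called 0 (297 of 12625 genes). With 1 library left out, edgeR called 3 without p53R248W/+ replicate 1, where it called 1485 of 12643 genes. It called 0 without any other library, where it called 37 to 499 of all genes. The median log2 fold change of the 9 genes was -0.56, and that of all genes tested was -0.00.

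In p53R248W/+ against p53+/+, which asks what the mutant allele changes, edgeR called 0 of 9 genes (0.00792% of all genes, which is 1 gene), 0 at an unadjusted p below 0.05 (0.958% of all genes), and 0 without overlap (5.04% of all genes). DESeq2 and limma-voom also called 0. With the replicate number as a block in the 6 libraries of these genotypes, an alternative added after seeing the data, edgeR called 0. In that fit 1 of the 9 genes, Dnmt1, had an unadjusted p below 0.05, with a log2 fold change of -0.44. The estimates ran from -0.36 for Dnmt1 to 0.11 for Tet3 with a median of -0.26, and with SEs of 0.154 to 0.364 differences of this size were not detectable.

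In p53R248W/+ against p53-/-, which sets the mutant against the loss of p53 and shares its libraries with the other comparisons, edgeR called 0 of 9 genes (3.44% of all genes). It found 2 at an unadjusted p below 0.05, Tet2 and Idh2, both higher in p53R248W/+ (21% of all genes), and 1 without overlap, Idh2 (24.2% of all genes, and 12.1% in the higher direction). DESeq2 and limma-voom called 0. The median log2 fold change was 0.34 for the 9 genes and 0.02 for all genes tested.

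**Figure D2:**
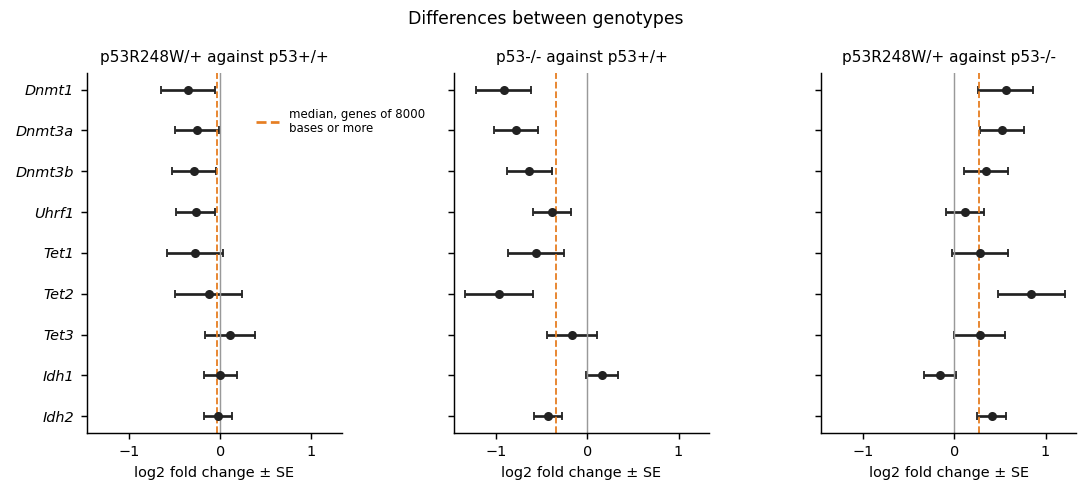
Log2 fold change with its SE (edgeR, 9 libraries) of 9 genes in 3 comparisons, with the median of the 542 genes of at least 8000 bases as a dashed line. The estimates for p53-/- against p53+/+ run from -0.97 for Tet2 to 0.16 for Idh1, and 0 of 9 pass an adjusted p of 0.05 in any panel.

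The genes that were lower without overlap differ in the CpG content of their promoters. RefSeq windows from 250 bases before to 50 bases after a transcription start (GRCm38.p6, the build of mm10) were matched by symbol for all 9 genes, and the window nearest to a GENCODE principal transcript was taken. This window lay within 1000 bases of such a start for 7 genes and more than 10000 bases away for Tet1 and Tet3. The 5 windows of the genes with no overlap between p53-/- and p53+/+ libraries are shown because CpG is the substrate of these enzymes, with each CpG in capitals. They were chosen after the values were seen. They are given 5′ to 3′ on the strand of the gene, and lie at chr9:20952930-20953229 (minus strand, Dnmt1), chr12:3806910-3807209 (plus, Dnmt3a), chr2:153649199-153649498 (plus, Dnmt3b), chr3:133544341-133544640 (minus, Tet2), and chr7:80115301-80115600 (minus, Idh2).
Dnmt1: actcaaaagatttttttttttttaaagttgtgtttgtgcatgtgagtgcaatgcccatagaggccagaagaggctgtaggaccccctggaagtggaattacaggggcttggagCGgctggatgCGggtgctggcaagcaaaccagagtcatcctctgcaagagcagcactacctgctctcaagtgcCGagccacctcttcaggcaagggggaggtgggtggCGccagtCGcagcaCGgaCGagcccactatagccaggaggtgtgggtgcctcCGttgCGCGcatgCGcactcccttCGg
Dnmt3a: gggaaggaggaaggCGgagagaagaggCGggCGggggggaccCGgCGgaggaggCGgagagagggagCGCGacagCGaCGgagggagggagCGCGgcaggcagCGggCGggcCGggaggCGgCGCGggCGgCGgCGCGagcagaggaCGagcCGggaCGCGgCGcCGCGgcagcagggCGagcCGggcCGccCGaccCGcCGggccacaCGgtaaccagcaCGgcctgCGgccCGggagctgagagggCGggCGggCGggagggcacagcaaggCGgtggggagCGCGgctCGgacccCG
Dnmt3b: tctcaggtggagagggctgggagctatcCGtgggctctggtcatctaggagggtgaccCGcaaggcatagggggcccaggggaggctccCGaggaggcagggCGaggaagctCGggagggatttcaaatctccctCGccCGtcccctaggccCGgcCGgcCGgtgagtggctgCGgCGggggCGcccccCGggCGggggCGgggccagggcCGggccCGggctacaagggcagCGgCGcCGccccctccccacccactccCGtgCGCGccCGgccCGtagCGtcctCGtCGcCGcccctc
Tet2: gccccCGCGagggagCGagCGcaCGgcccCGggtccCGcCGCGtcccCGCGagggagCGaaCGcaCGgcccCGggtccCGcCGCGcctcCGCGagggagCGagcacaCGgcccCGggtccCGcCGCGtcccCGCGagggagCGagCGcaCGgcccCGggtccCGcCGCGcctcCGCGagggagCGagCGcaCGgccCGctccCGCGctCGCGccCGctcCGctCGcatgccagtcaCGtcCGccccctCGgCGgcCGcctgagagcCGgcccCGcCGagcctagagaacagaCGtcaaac
Idh2: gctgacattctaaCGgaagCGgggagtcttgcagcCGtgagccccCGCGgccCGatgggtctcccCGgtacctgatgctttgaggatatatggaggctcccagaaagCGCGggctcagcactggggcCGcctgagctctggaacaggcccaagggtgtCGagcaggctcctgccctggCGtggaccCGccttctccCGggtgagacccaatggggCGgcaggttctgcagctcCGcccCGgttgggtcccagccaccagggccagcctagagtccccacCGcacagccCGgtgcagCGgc
The Tet2 window holds 57 CpGs, more than 99.8% of the 32851 windows of all genes have, and Dnmt3a holds 47, Dnmt3b 30, Idh2 20, and Dnmt1 12, against a median of 7. Over all 9 genes the count ran from 12 to 57 with a median of 22. GC boxes (GGGCGG on either strand) were found in 8 of the 9 windows, all but that of Dnmt1, and in 35.7% of all windows. No window held an E2F word (TTTCCCGC, TTTCGCGC, TTTGCCGC or TTTGGCGC, either strand, 2.26% of all windows) or the p53 half-site consensus (8.36% of all windows), which says only that these letters are not in these 300 bases. A second Dnmt1 window, 356 bases from the principal start, held 33 CpGs, 2 GC boxes, and 2 E2F words, so the lack of a GC box at Dnmt1 depends on the window taken. A second Uhrf1 window held 33 CpGs, 3 GC boxes, and 1 E2F word.

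Dnmt1 (chromosome 9, 20907206 to 20959888), the maintenance methyltransferase, read 302, 490 and 441 CPM in p53+/+ replicates 1 to 3, 167, 411 and 385 CPM in p53R248W/+, and 217, 187 and 249 CPM in p53-/- libraries. All p53-/- libraries lay below all p53+/+ libraries, and p53R248W/+ replicate 1 was the lowest of the 9. Its log2 fold change in p53-/- against p53+/+ was -0.92 ± 0.302 (SE), a 1.89-fold lower estimate with an unadjusted p of 0.0106 and an edgeR adjusted p of 0.101. When edgeR was fitted to the 6 libraries of these genotypes alone, the same estimate had an adjusted p of 0.0254. For p53R248W/+ it was -0.36 ± 0.300 against p53+/+ and 0.56 ± 0.301 against p53-/-, with edgeR adjusted p of 1 and 0.313.

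Dnmt3a (chromosome 12, 3801559 to 3914443), a de novo methyltransferase, read 112, 133 and 132 CPM in p53+/+, 64.0, 116 and 135 CPM in p53R248W/+, and 61.6, 75.6 and 81.8 CPM in p53-/- libraries. Here too p53-/- and p53+/+ libraries did not overlap, and p53R248W/+ replicate 1 lay among the p53-/- values while its other 2 libraries lay above them. The log2 fold change in p53-/- against p53+/+ was -0.78 ± 0.245, 1.72-fold lower, with an edgeR adjusted p of 0.0875 in the fit to all 9 libraries and 0.0256 in the 6 libraries of the 2 genotypes. Against p53-/- libraries, the p53R248W/+ libraries differed by 0.52 ± 0.244 (edgeR adjusted p = 0.247).

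Dnmt3b (chromosome 2, 153649411 to 153687730), the other de novo methyltransferase, read 119, 152 and 158 CPM in p53+/+, 78.4, 121 and 151 CPM in p53R248W/+, and 103, 72.4 and 101 CPM in p53-/- libraries. The gap between genotypes was narrow, from 119 CPM in the lowest p53+/+ library to 103 CPM in the highest p53-/- library. Its log2 fold change was -0.64 ± 0.242 in p53-/- against p53+/+ (1.55-fold lower, edgeR adjusted p = 0.144). Within the family, Dnmt1 held 58.4%, 56.6%, and 54.7% of the summed DNMT level per length in p53+/+, p53R248W/+, and p53-/- libraries, with SDs of 3.12, 5.17, and 1.11 percentage points. The log2 ratio of Dnmt3b to Dnmt3a was 1.38 ± 0.0856, 1.37 ± 0.115, and 1.53 ± 0.403 (SD, n = 3 each), and an exact permutation test over the 3 genotypes gave p = 0.793 after adjustment over 5 ratios.

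Uhrf1 (chromosome 17, 56303337 to 56323486), which recruits DNMT1 to replicated DNA, read 262, 357 and 382 CPM in p53+/+, 232, 318 and 280 CPM in p53R248W/+, and 290, 197 and 280 CPM in p53-/- libraries. The genotypes overlapped. Its log2 fold change in p53-/- against p53+/+ was -0.39 ± 0.209 (edgeR adjusted p = 0.291). The log2 ratio of Uhrf1 to Dnmt1 per length was 0.50 ± 0.147 in p53+/+, 0.67 ± 0.513 in p53R248W/+, and 1.01 ± 0.179 in p53-/- libraries, a difference that did not pass the exact permutation test over genotypes (adjusted p = 0.281).

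Tet2 (chromosome 3, 133463677 to 133545136), the TET enzyme most often mutated in blood disorders, had the fewest counts. It read 16.8, 24.7 and 21.8 CPM in p53+/+, 11.0, 20.7 and 26.2 CPM in p53R248W/+, and 5.93, 14.7 and 11.6 CPM in p53-/- libraries, from 109 counts in p53-/- replicate 1 to 573 counts in p53R248W/+ replicate 3. All p53-/- libraries were below all p53+/+ libraries. Its log2 fold change there was -0.97 ± 0.370, 1.96-fold lower, the largest size among the 9 genes and also the one with the largest SE (edgeR adjusted p = 0.145). In p53R248W/+ against p53-/- libraries it was 0.84 ± 0.369, with an unadjusted p of 0.0416 and an edgeR adjusted p of 0.218.

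Tet1 (chromosome 10, 62804570 to 62887469) read 35.5, 51.9 and 39.3 CPM in p53+/+, 19.3, 37.5 and 47.7 CPM in p53R248W/+, and 21.8, 27.7 and 36.2 CPM in p53-/- libraries, with overlap between all genotypes. Tet3 (chromosome 6, 83362373 to 83457208) read 36.1, 41.5 and 42.0 CPM in p53+/+, 24.7, 51.0 and 53.6 CPM in p53R248W/+, and 27.2, 41.0 and 38.4 CPM in p53-/- libraries, again with overlap. The log2 fold change in p53-/- against p53+/+ was -0.56 ± 0.309 for Tet1 and -0.17 ± 0.275 for Tet3 (edgeR adjusted p = 0.297 and 0.758).

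The mixture of TET transcripts was compared between genotypes by ratios, of genes chosen with earlier results of these data known. The log2 ratio of Tet3 to Tet2 per length within a library, which does not depend on library size, was 0.86, 0.50 and 0.70 in p53+/+, 0.91, 1.06 and 0.78 in p53R248W/+, and 1.94, 1.23 and 1.48 in p53-/- libraries. All p53-/- ratios lay above the other 6. The mean was 0.69 ± 0.177 in p53+/+, 0.92 ± 0.136 in p53R248W/+, and 1.55 ± 0.361 in p53-/- libraries, which is 1.61, 1.89, and 2.93 on the linear scale. An exact permutation test over the 3 genotypes gave p = 0.00714 and 0.0357 after adjustment over 5 ratios, where the smallest p possible was 0.00357. It was the 1 ratio past the threshold, and the call was lost when any 1 library other than p53-/- replicates 2 and 3 was left out, with the smallest adjusted p of the 5 ratios then from 0.0536 to 0.202. An exact permutation test of 2 genotypes with 3 libraries each cannot go below 0.1, which is the value for p53-/- against either other genotype.

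As a share of the summed TET level, Tet2 made up 25.5% ± 1.44 in p53+/+, 24.6% ± 1.09 in p53R248W/+, and 17.6% ± 4.04 in p53-/- libraries (SD, n = 3 each). Tet3 made up 41.1% ± 3.21, 46.5% ± 2.37, and 50.8% ± 2.69, and Tet1 33.4% ± 2.63, 28.8% ± 1.37, and 31.6% ± 4.24. The log2 ratio of Tet1 to Tet2 was 0.39 ± 0.129, 0.23 ± 0.034, and 0.86 ± 0.501, with p53-/- replicate 2 near the other genotypes at 0.30, and did not pass the exact permutation test over genotypes (adjusted p = 0.137).

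**Figure D3:**
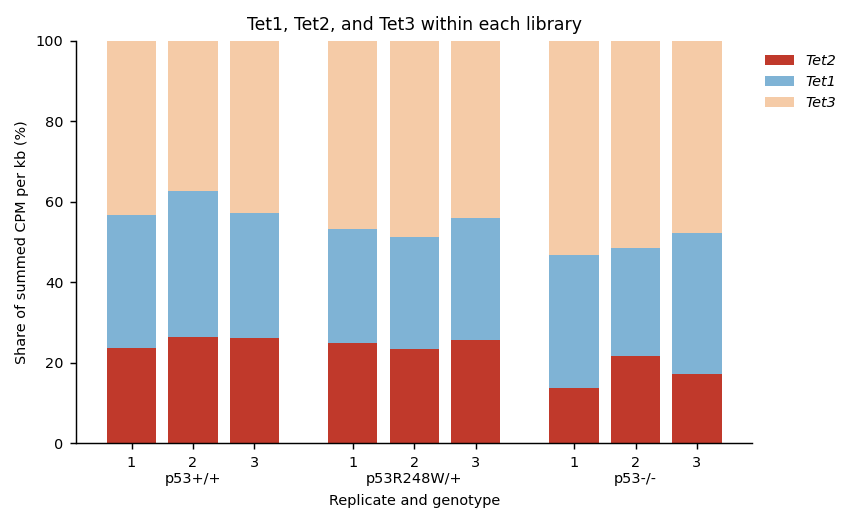
Shares of Tet2, Tet1, and Tet3 in their summed CPM per kb (%, linear axis from 0 to 100), with a bar for each of 9 LSK libraries grouped by genotype. Tet2 takes 23.5% to 26.4% in p53+/+ and p53R248W/+ libraries and 13.8% to 21.8% in p53-/- libraries.

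Idh2 (chromosome 7, 80094845 to 80118608), which makes 2-oxoglutarate in mitochondria, read 567, 621 and 740 CPM in p53+/+, 646, 611 and 636 CPM in p53R248W/+, and 504, 436 and 488 CPM in p53-/- libraries. The p53-/- libraries lay below all 6 others. Its log2 fold change was -0.43 ± 0.154 in p53-/- against p53+/+ (1.35-fold lower, unadjusted p = 0.0157, edgeR adjusted p = 0.122) and 0.41 ± 0.154 in p53R248W/+ against p53-/- (unadjusted p = 0.0216, edgeR adjusted p = 0.158). Against p53+/+ the p53R248W/+ libraries differed by -0.03 ± 0.154.

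Idh1 (chromosome 1, 65158616 to 65186479), the cytosolic enzyme, read 78.2, 75.0 and 73.6 CPM in p53+/+, 92.1, 68.5 and 66.1 CPM in p53R248W/+, and 72.8, 89.6 and 90.9 CPM in p53-/- libraries. It was the 1 gene of the 9 with a higher estimate in p53-/- than in p53+/+ libraries, at 0.16 ± 0.174 on the log2 scale (edgeR adjusted p = 0.615), and its level was highest in p53R248W/+ replicate 1. The log2 ratio of Idh2 to Idh1 per length was 3.60 ± 0.237 in p53+/+, 3.60 ± 0.236 in p53R248W/+, and 3.02 ± 0.261 in p53-/- libraries. All p53-/- ratios lay below the other 6, and the exact permutation test over genotypes gave p = 0.0643 and 0.137 after adjustment over 5 ratios.

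Transcript length moved with several of these differences. The long-gene measure was -0.07, 0.56 and 0.09 in p53+/+ replicates 1 to 3, -0.68, 0.39 and 0.51 in p53R248W/+, and -0.36, -0.43 and 0.10 in p53-/- libraries. Among the 542 genes of at least 8000 bases, 71.6% had a lower estimate in p53-/- than in p53+/+ libraries, with a median log2 fold change of -0.34, and the 3769 genes of at most 2000 bases had a median of 0.06. Dnmt3a, Tet1, Tet2, and Tet3 are in the long class by the deposited lengths (9947, 14082, 9181, and 10906 bases), while Dnmt1 has 6304 bases and Idh2 1702. When the trend on length was removed from each library, an alternative added after seeing the data, the log2 fold change in p53-/- against p53+/+ was -0.68 for Dnmt1 (edgeR adjusted p = 0.0464), -0.40 for Dnmt3a (0.0768), -0.54 for Dnmt3b (0.0817), -0.62 for Tet2 (0.151), and -0.44 for Idh2 (0.0856). Tet1 came to -0.05, Uhrf1 to -0.32, and Idh1 to 0.20, and Tet3 turned to 0.25 in that fit. In p53R248W/+ against p53+/+ it gave -0.34 for Dnmt1 and a median of -0.23 over the 9 genes, and in p53R248W/+ against p53-/- a median of 0.17 (0.34 before), with Tet1 at -0.21 and Tet3 at -0.12.

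**Figure D4:**
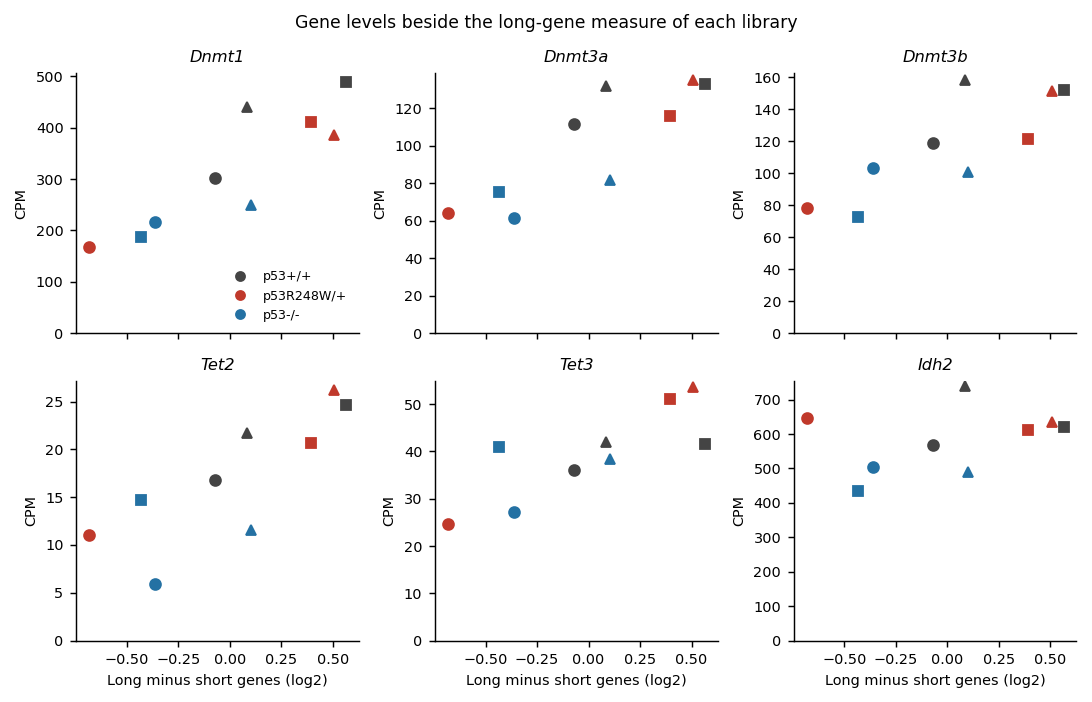
CPM (linear axis from 0) of 6 genes in each of 9 LSK libraries against the long-gene measure of the library (median log2 deviation of genes of at least 8000 bases minus that of genes of at most 2000 bases), with colors for genotypes and circles, squares and triangles for replicates 1, 2 and 3. The DNMT and TET levels are low in p53R248W/+ replicate 1 at -0.68, whereas Idh2 is not.

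Leaving out p53R248W/+ replicate 1 brought the p53R248W/+ estimates of the DNMT genes, Tet1, and Uhrf1 closer to p53+/+ and moved those of Tet3, Idh1, and Idh2 further away. Without it, the log2 fold change was -0.05 for Dnmt1, -0.01 for Dnmt3a, -0.08 for Dnmt3b, 0.00 for Tet1, 0.14 for Tet2, 0.38 for Tet3, -0.17 for Uhrf1, -0.18 for Idh1, and -0.06 for Idh2, and the median over the 9 genes moved from -0.26 to -0.05. Its removal also changed the calls of the other comparisons, and all libraries share 1 estimate of the spread in the fit. In p53-/- against p53+/+, Dnmt1, Dnmt3a, and Dnmt3b then passed (edgeR adjusted p = 0.0139, 0.013, and 0.0448) among 1485 genes called, with log2 fold changes of -0.90, -0.77, and -0.62. In p53R248W/+ against p53-/-, Dnmt1 and Dnmt3a passed as higher in p53R248W/+ (0.85 and 0.76, edgeR adjusted p = 0.0235 and 0.0186) among 1559 genes called, with 2 p53R248W/+ libraries left.

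Other genes of the pathway were read from 6 lists of 79 genes, of which 74 had a row and were tested. In p53-/- against p53+/+, 4 of 74 were called, all lower, where 3.5% of all genes were called, and in p53R248W/+ against p53-/- 2 of 74, both higher in p53R248W/+, where 3.44% were. Both counts were near these shares of all genes. These calls changed when 1 library was left out. In the first comparison, 0 of 74 were called without p53+/+ replicate 2 or 3 or p53-/- replicate 2 or 3, and 2 without p53-/- replicate 1. Over all genes, 37 to 103 were called in these fits in place of 442. In the second, 0 were called without replicate 2 or 3 of either genotype, where 77 to 102 of all genes were called in place of 434. Without p53R248W/+ replicate 1, 6 of 74 and 1559 of all genes were called. In p53R248W/+ against p53+/+ edgeR called 0 of 74, with 0 at an unadjusted p below 0.05, and DESeq2 and limma-voom called 0. The median log2 fold change of the 74 genes was -0.21 in p53-/- against p53+/+, -0.05 in p53R248W/+ against p53+/+, and 0.13 in p53R248W/+ against p53-/-.

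Among the partners of methyltransferases and TET enzymes, 1 of 8 genes fell in p53-/- LSKs (3.5% of all genes were called). Lig1, the DNA ligase that joins Okazaki fragments and, when methylated, binds UHRF1, read 165, 239 and 278 CPM in p53+/+, 144, 222 and 208 CPM in p53R248W/+, and 116, 99.8 and 102 CPM in p53-/- libraries. It fell by 1.10 ± 0.223 on the log2 scale (edgeR adjusted p = 0.0274), and its difference of 0.85 ± 0.222 between p53R248W/+ and p53-/- libraries did not pass in edgeR (adjusted p = 0.0582), whereas DESeq2 called it and Cxxc5, the latter lower in p53R248W/+.

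In the methyl donor cycle, which supplies S-adenosylmethionine, 1 of 12 genes fell (3.5% of all genes were called). Mthfd2, a mitochondrial enzyme of one-carbon metabolism, read 21.0, 25.1 and 46.1 CPM in p53+/+ and 14.8, 13.0 and 13.5 CPM in p53-/- libraries, a log2 fold change of -1.16 ± 0.287 at the edge of the threshold (edgeR adjusted p = 0.0497). DESeq2 called Mthfd2 there and limma-voom did not. In p53R248W/+ against p53+/+ the smallest p of this list was that of Mthfd1, at -0.29 ± 0.219, and in p53R248W/+ against p53-/- that of Mthfd2, at 0.90 ± 0.286 (edgeR adjusted p = 1 and 0.101), the latter called by DESeq2.

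Of the 20 genes of DNA replication and the cell cycle, 2 fell in p53-/- LSKs (3.5% of all genes were called) and 19 had a lower estimate (50.1% of all genes). Mki67, the Ki-67 proliferation marker, read 68.3, 108 and 121 CPM in p53+/+, 28.2, 124 and 135 CPM in p53R248W/+, and 17.1, 19.7 and 22.0 CPM in p53-/- libraries, a log2 fold change of -2.34 ± 0.458 (edgeR adjusted p = 0.0255). Top2a, the mitotic topoisomerase, changed by -1.64 ± 0.312 in p53-/- against p53+/+ (edgeR adjusted p = 0.0234), and both were higher in p53R248W/+ than in p53-/- libraries, by 2.28 ± 0.457 and 1.72 ± 0.313 (edgeR adjusted p = 0.0253 and 0.0183). In both comparisons limma-voom called Top2a but not Mki67. The replication factors Mcm2 and Pcna stood at -0.52 ± 0.221 and -0.01 ± 0.216 in p53-/- against p53+/+ (edgeR adjusted p = 0.185 and 0.992). Mki67, with 10075 bases, was, like Dnmt1, low in p53R248W/+ replicate 1 and in the p53-/- libraries. Pcna, with 1260 bases, was highest in p53R248W/+ replicate 1 at 447 CPM. That library had the lowest long-gene measure, at -0.68, and the part of transcript length in this contrast was not tested. The part of the replication and cell cycle genes in the level of Dnmt1 was not tested either. The smallest p of this list in p53R248W/+ against p53+/+ was that of Cdt1, at -0.31 ± 0.215 (edgeR adjusted p = 1).

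The edgeR fit called 0 of the 9 methyl-CpG readers, 0 of the 9 genes of base excision repair, and 0 of the 16 genes of 2-oxoglutarate and 2-hydroxyglutarate metabolism, with 2, 2, and 0 genes at an unadjusted p below 0.05 in p53-/- against p53+/+. DESeq2 called 1, 2, and 0 of them in p53-/- against p53+/+, where it called 1552 of 12600 genes, and limma-voom called 0 in each. Uhrf2, a paralog of Uhrf1, was higher in every p53-/- library (113 to 178 CPM) than in any p53+/+ library (91.1 to 109 CPM), with a log2 fold change of 0.57 ± 0.185 (edgeR adjusted p = 0.0996). Parp1, which senses DNA strand breaks, read 259, 417 and 397 CPM in p53+/+ and 182, 139 and 212 CPM in p53-/- libraries, a difference of -1.01 ± 0.264 (edgeR adjusted p = 0.055). In 2-oxoglutarate metabolism the smallest p was that of Sdhc, a subunit of succinate dehydrogenase, at 0.33 ± 0.209 (edgeR adjusted p = 0.367). Against p53+/+, the p53R248W/+ libraries had the smallest p at Mbd3 (-0.28 ± 0.191), Polb (0.26 ± 0.199), and Got2 (-0.20 ± 0.158), each with an edgeR adjusted p of 1. Against p53-/- they had it at Uhrf2 (-0.35 ± 0.185), Parp1 (0.87 ± 0.263), and Dld (0.27 ± 0.164), with edgeR adjusted p of 0.303, 0.0872, and 0.374, of which DESeq2 called Parp1.

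Marker genes of other cells and of cell handling also differed in p53-/- libraries. Over all genes in p53-/- against p53+/+, edgeR called 3.5%, found 23.4% at an unadjusted p below 0.05, and gave 50.1% a lower estimate. DESeq2 called 1552 of 12600 genes there and limma-voom 297 of 12625. All 10 immediate early and heat shock genes had lower estimates in p53-/- than in p53+/+ libraries, 3 of them past the threshold (Fos, Jun, and Hspa1a), and their summed level was 652 to 954 CPM, against 1590 to 4130 in p53+/+ and 1400 to 5850 CPM in p53R248W/+ libraries. All 9 granulocyte and monocyte markers measured had lower estimates there, with 0 past the threshold in edgeR, 6 at an unadjusted p below 0.05, 1 with DESeq2 (Mpo), and 0 with limma-voom. Their summed level was 1930 to 2380 CPM in p53-/-, 2670 to 7980 in p53+/+, and 4120 to 9370 CPM in p53R248W/+ libraries, and none of them was at 0 in a library. The granule genes Ngp, Camp, Ltf, S100a8, and S100a9 stood apart in p53+/+ replicate 2 and p53R248W/+ replicate 2, where Ngp read 1003 and 584 CPM against 1.08 to 22.6 CPM in the other libraries. Of the 10 LSK and stem cell markers, 8 had higher estimates in p53-/- libraries, with Hlf past the threshold. T and NK markers summed to 79.0 to 96.2 CPM in p53-/- and 120 to 172 CPM in p53+/+ libraries, with 5 of 6 lower, Lck past the threshold, and Cd8a at 0 in 1 library of each of these genotypes. Of the edgeR calls among these markers, limma-voom also called Fos, Jun, and Hlf but not Hspa1a or Lck. B lymphoid, erythroid, and megakaryocyte markers had 0 calls in edgeR and in limma-voom and 0, 0, and 2 in DESeq2, with 1, 0, and 3 genes at an unadjusted p below 0.05. Their sums in p53-/- libraries were 90.3 to 104, 24.9 to 81.9, and 123 to 140 CPM, against 73.7 to 123, 46.5 to 65, and 142 to 195 CPM in p53+/+ libraries, with Ms4a1 at 0 in 1 library of each of these genotypes. The part of these genes in the levels of the DNA methylation enzymes was not tested.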

How the data were processed

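RNA of LSKs from 3 genotypes was sequenced, with 3 libraries each. The submitters' processing notes name STAR 2.5.2b, featureCounts, Subread 1.5.0, edgeR, and mm10, and the methods describe oligo(dT) selection with random hexamers while the labels name a SMART-Seq v4 kit. The values deposited by the authors are raw read counts per gene with gene lengths in bases. Columns with the authors' own tests between genotypes (fold changes, p, and FDR) were not used. No gene had fewer than 37 counts in total. H3K27me3 ChIP-seq was not analysed here, and the level of the targeted gene is not reported here.

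Libraries were grouped by the genotype in their titles. edgeR 4.0.16 in R 4.3.3 was used with filterByExpr, TMM factors, and 1 quasi-likelihood fit to all 9 libraries, with Benjamini-Hochberg adjustment over 12625 genes and a threshold of 0.05. An SE is the log2 fold change divided by the square root of F. CPM used TMM library sizes, and CPM per kb divided them by the deposited length. Library totals of 18021375 to 29750702 counts set the counting precision. Ratios of related genes (counts per kb, pseudocount 0.5) were compared by a 2-sided exact permutation test of F over the 3 genotypes, adjusted over 5 ratios. Other fits used DESeq2 1.42.0, voom weights in limma 3.58.1, DESeq2's size factors, no filter, the replicate number as a block, the 6 libraries of 2 genotypes, leaving out each library, and, for ratios, total counts and a pseudocount of 2. A loess fit on gene length (span 0.5) and the block within 6 libraries were added after seeing the data. The tests were checked on simulated counts.

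The genes, lists, and alternatives were chosen with earlier results of these data known. Named were all listed genes, in each pathway list and comparison up to 4 genes past the threshold or else the gene with the smallest p, Mcm2, Pcna, Mki67, and Top2a, and for each listed gene the 3 genes with the highest Pearson r. No replicates of a genotype agreed within counting noise (chi-square per degree of freedom of 24.6 to 151). Promoter windows and positions are from RefSeq GRCm38.p6, and figures were made with Python 3.11.15.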

Additional observations from a re-analysis of the deposited data

How the results depend on the processing

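In p53R248W/+ against p53+/+, 0 of the 9 genes and 0 of the 74 pathway genes were called under each alternative run. In p53-/- against p53+/+, the number of the 9 genes called was 2 with DESeq2, 2 with the 6 libraries of these genotypes, 1 with the length trend removed, and 0 to 3 when 1 library was left out, the 3 without p53R248W/+ replicate 1. Pathway genes called there were 7 with DESeq2, 2 with limma-voom, 7 with the length trend removed, and 0 to 6 with 1 library left out, with 0 without p53+/+ replicate 2 or 3 or p53-/- replicate 2 or 3 and 2 without p53-/- replicate 1. In p53R248W/+ against p53-/-, 0 to 2 of the 9 genes were called with 1 library left out, and pathway genes called were 7 with DESeq2, 1 with limma-voom, 4 with the length trend removed, and 0 to 6 with 1 library left out, with 0 without replicate 2 or 3 of either genotype and 6 without p53R248W/+ replicate 1. Over all genes, DESeq2 called 1552 of 12600 in p53-/- against p53+/+ and 1325 of 12600 in p53R248W/+ against p53-/-. The causes were not tested.

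The edgeR fit to all 9 libraries did not pair samples by replicate number. Titles of p53+/+ and p53R248W/+ libraries with the same number are alike in replicates 1 and 2, but state no pairing. Correlations of deviations between same-numbered p53R248W/+ and p53+/+ libraries were 0.312, 0.517, and 0.034, and between differently numbered ones -0.433 to 0.019. Between p53-/- and p53+/+ libraries they were 0.012, -0.075, and -0.02 with the same number and -0.113 to 0.139 otherwise. Any difference in handling between the p53-/- and the other libraries cannot be told apart from genotype. With the replicate number as a block, 2 of the 9 genes were called in p53-/- against p53+/+, Dnmt3a and Tet2 (adjusted p = 0.0365 and 0.0349), with 882 genes called in place of 442, and 672 in place of 434 in p53R248W/+ against p53-/-. With the block in the 6 libraries of p53-/- and p53+/+, 3 were called, Dnmt1, Dnmt3a, and Tet2. Over all genes, calls in p53-/- against p53+/+ were 1552 with DESeq2, 297 with limma-voom, 894 in 6 libraries, 1193 with the length trend removed, and 37 to 1485 with 1 library left out. In p53R248W/+ against p53-/- they were 1325, 333, 208, 884, and 77 to 1559.

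Of the 153 log2 fold changes of the 9 genes recomputed in each comparison, 13, 2, and 4 changed sign, all of them not past the threshold. In p53R248W/+ against p53+/+ these were Idh1 (0.001 with DESeq2, 0.001 with its size factors, 0.009 with the length trend removed, and -0.178 to 0.087 with 1 library left out), Tet1 (-0.575 to 0.004), Tet2 (-0.413 to 0.144), Tet3 (-0.077 to 0.381), and Idh2 (-0.109 to 0.087), the last 4 with 1 library left out. Tet3 in p53-/- against p53+/+ came to 0.247 with the length trend removed and -0.282 to 0.01 with 1 library left out. In p53R248W/+ against p53-/-, Tet1 came to -0.205 and Tet3 to -0.121 with the length trend removed, and with 1 library left out Tet1 ran from -0.011 to 0.551 and Uhrf1 from -0.043 to 0.203. The number of ratios called was 1 with total counts and with a pseudocount of 2, and 0 to 2 with 1 library left out. With 3 libraries a genotype, the common coefficient of biological variation was 0.281.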

Other observations

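Genes whose levels followed each DNA methylation gene most closely over the 9 libraries were listed by Pearson's r of log2 CPM. The points share their libraries, so the values are a description. For Dnmt1 they were Dpp9 (0.988), Gramd4 (0.986), and Map3k5 (0.985), for Dnmt3a Crocc (0.995), Gm20605 (0.994), and Zbtb17 (0.991), and for Dnmt3b Akap8 (0.98), Tcf3 (0.973), and Ano8 (0.97). Uhrf1 was followed by Eif3b (0.989), Cdt1 (0.977), which licenses replication origins, and Prep (0.971). The chromatin remodeler Smarca2 (0.994) was nearest to Tet1, before Myo18a (0.982) and Zmiz1 (0.981). Bptf (0.99), a subunit of the NURF remodeler, was nearest to Tet2, before Plekha5 (0.984) and Golgb1 (0.984), and Maz (0.978), Bbx (0.966), and Arid1a (0.965) to Tet3. The genes nearest to Idh1 were Pccb (0.953), a subunit of propionyl-CoA carboxylase, Mlycd (0.952), and Elp4 (0.943), and those nearest to Idh2 were Parp2 (0.984), Ndufa10 (0.978), a subunit of mitochondrial complex I, and Mrgbp (0.978).

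Between the listed genes themselves, over the same 9 libraries and again as a description, r was 0.937 for Dnmt1 with Dnmt3a, 0.939 for Dnmt1 with Dnmt3b, and 0.92 for Dnmt3a with Tet2. It was 0.84 for Dnmt1 with Uhrf1. Idh1 had a negative r with each of the other 8 genes, from -0.782 with Dnmt3b to -0.431 with Tet2, and -0.468 with Idh2.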
